A study of Mus musculus with 6 samples.

Results

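Keratinocytes of the hair follicle bulge and hair germ were examined in single-cell transcriptomes of mouse skin. They were 936 of 21178 cells, or 4.42%. A cell belonged to them if its Krt5, Krt14 and Krt15 summed to at least 50 UMIs per 10000 UMIs of the cell, and if at least 3 of the 7 genes Lgr5, Sfrp1, Tbx1, Id4, Shisa2, Nrep and Hmcn1 were detected. In addition Krt1 and Krt10 had to sum to less than 50, Ptprc and Cd3e had to be 0, and Mki67 and Top2a could not both be detected. UMIs are unique molecular identifiers, each of which stands for 1 captured RNA molecule. The same rule with fewer than 3 of the 7 marker genes gave 4405 other basal keratinocytes, which served for comparison.

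All mice were of the NINJA strain, 6 to 12 weeks old, and cells came from skin that had received 4-OH-Tam. There were 2 mice in each of 3 groups. NO_AG mice had the antigen off, AG mice had it on, and AG_CPI mice had the antigen on together with CPI, an abbreviation that the labels do not spell out. From the skin of each mouse, P14 cells had been recovered, which are CD8 T cells with a transgenic receptor. The labels do not say in which skin cells the antigen was switched on, and they give neither sex nor batch.

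The bulge is the part of the outer root sheath that holds the stem cells of the resting hair follicle, and the germ is the small cell group below it that starts the next hair cycle. Bulge cells are kept quiet by BMP signals and are activated when Wnt signals outweigh Wnt inhibitors. The bulge is known as a site of immune privilege, with little class I antigen presentation. Interferons raise the class I molecules, the immunoproteasome and the peptide transporter that together show peptides to CD8 T cells.

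The libraries held 1736 to 4972 cells, with 5903724 to 24656382 UMIs in total and medians of 2527 to 4744 UMIs per cell. Pairs of libraries shared 5 to 35 cell barcodes. NO_AG mice gave 321 and 393 bulge and germ cells, AG mice 108 and 98, and AG_CPI mice 3 and 13, so values of AG_CPI 1 rest on 3 cells and have no weight of their own. Their median depth was alike in all mice, from 5161 to 6215 UMIs, whereas that of the other basal keratinocytes ranged from 2120 to 6733. Their median share of mitochondrial UMIs was 3.50% to 4.44%. AG_CPI 1 stood apart in sex-linked genes. Its other basal keratinocytes had a mean of 0.444 UMIs of Ddx3y per 10000, against 0 in the other mice. Xist was at 0.0197 in these cells, against 3.99 to 6.22 in the other mice, and the 3 bulge and germ cells of AG_CPI 1 had none of it. AG 2 was the highest in T cell genes: the 9 listed T cell markers summed to 4.20 UMIs per 10000 in its bulge and germ cells, against 0.0596 and 0.307 in NO_AG and 0.374 in AG 1. In AG_CPI 2 they summed to 1.76. In the other basal keratinocytes the sum was 12.2 in AG 2 and 10.4 in AG_CPI 2, against 0.408 to 2.31 in the other mice.

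The cells were chosen by their levels of the 7 marker genes and of the keratins, so these levels are a description. Sfrp1, a secreted Wnt inhibitor, had the highest level of the 7 in these cells, with means of 8.81 and 10.9 UMIs per 10000 in the NO_AG mice and 9.19 and 10.3 in the AG mice. Lgr5, a receptor for R-spondins, had means of 2.25 and 1.82 in NO_AG and 1.66 and 1.84 in AG. Tbx1, a T-box transcription factor, had 4.05 and 3.83 in NO_AG and 3.73 and 3.28 in AG. In the other basal keratinocytes of these 4 mice the 7 genes lay between 0.0417 and 0.748. Cells with exactly 3 markers numbered 71, 89, 26 and 29 in NO_AG 1, NO_AG 2, AG 1 and AG 2.

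Cells just inside and just outside the marker threshold differed by degree. The mean level of Lhx2 was 3.18, 2.87, 3.70 and 2.25 UMIs per 10000 in cells with exactly 3 markers, and 1.43, 1.89, 1.10 and 1.59 in cells with exactly 2, in the same order of mice. Lhx2 is a transcription factor of follicle stem cells. H2-K1, a class I heavy chain, was at 8.68, 7.10, 17.3 and 18.3 just inside and at 12.8, 12.2, 19.4 and 17.5 just outside. At the keratin threshold, 12, 10, 2 and 3 cells had a keratin sum of 50 to 60, and 18, 5, 2 and 5 cells that met the other criteria had 40 to 50. No such cell lay near the Krt1 and Krt10 threshold, that is between 40 and 60.

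Of the 17 listed bulge stem cell genes, none of them part of the rule, 15 had a ratio to the other basal keratinocytes in all 4 mice of NO_AG and AG. It was above 1 in all 4 for 12 of these and mixed for 3, namely Fst, Gas6 and Foxc1. Cd34, the surface marker of the bulge, had means of 0.868 and 0.879 UMIs per 10000 in the NO_AG mice and 0.847 and 0.615 in the AG mice. In the other basal keratinocytes Cd34 was at 0.0668, 0.121, 0.0229 and 0.0577. Lhx2 was at 3.90, 3.70, 4.44 and 3.16 in the bulge and germ cells, against 0.217, 0.401, 0.190 and 0.270. Both genes were thus higher in every one of the 4 mice, by 7.24 to 37.0 times for Cd34 and by 9.25 to 23.4 times for Lhx2. Sox9, a transcription factor of the outer root sheath, was at 7.69, 7.72, 8.90 and 5.62, against 1.64, 1.58, 1.87 and 1.63. The summed bulge list was 29.3 to 37.8 in these cells and 10.5 to 15.2 in the others. The hair germ list, which holds the Hedgehog pathway genes Gli1, Gli2 and Ptch1, summed to 2.74 to 3.80 against 1.11 to 1.41. Of 8 germ genes with 4 ratios, 5 were higher in all 4 mice, Lef1 and Msx2 were mixed, and Axin2, a Wnt target, was lower in all 4.

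**Figure D1:**
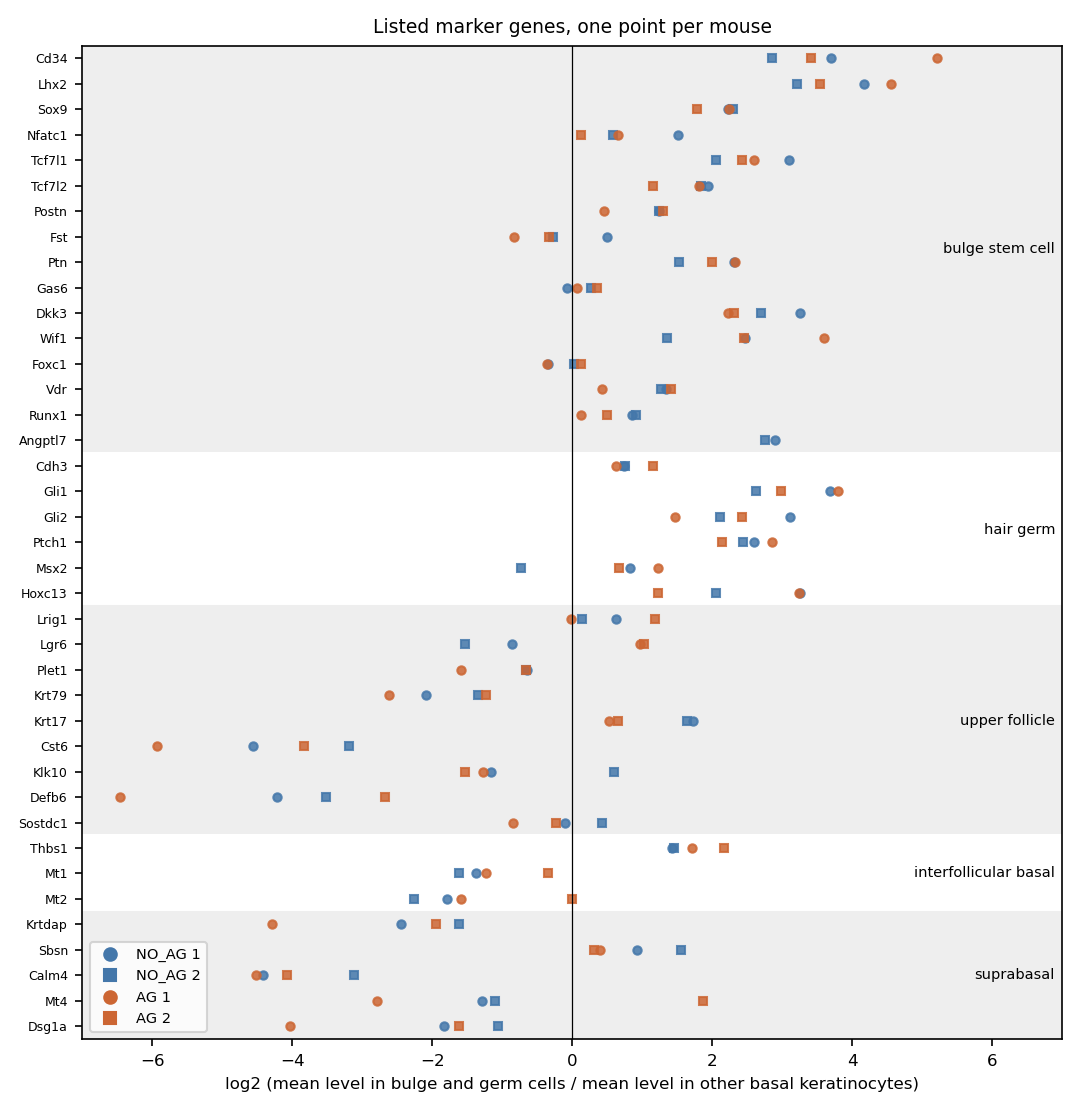
Mean level in bulge and germ cells divided by the mean level in other basal keratinocytes of the same mouse, on a log2 axis, for the tested genes of 5 lists. Each point is 1 mouse (NO_AG blue, AG orange; circle replicate 1, square replicate 2), and a mouse with 0 in either population has no point. Cd34, Lhx2 and Sox9 lie right of 0 in all 4 mice, and Cst6, Calm4 and Krt79 lie left of 0.

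Genes of the upper follicle and of the suprabasal layers were detected in these cells. Of the 10 upper follicle genes, 5 were lower than in the other basal keratinocytes in all 4 mice, 1 was higher and 4 were mixed. Of the 9 suprabasal genes, 5 were lower, 3 were mixed and Sbsn (suprabasin) was higher, with 5.32, 9.95, 5.81 and 5.46 against 2.80, 3.39, 4.41 and 4.42. Krt79, a keratin of the infundibulum and sebaceous duct, had means of 3.46, 5.56, 7.14 and 10.7 in the bulge and germ cells and of 14.8, 14.1, 43.8 and 25.2 in the other basal keratinocytes. Krt17, a follicle keratin, was the upper follicle gene that was higher in all 4, with 44.1, 57.0, 54.1 and 43.0 against 13.3, 18.3, 37.5 and 27.5. Some of the cells therefore carried markers of the upper follicle, and results were recomputed without cells that had a Krt79 UMI. Tagln and Acta2, 2 of the 5 genes of a muscle and pericyte list, were higher here than in the other basal cells in all 4 mice. The list summed to 3.82 and 4.17 in NO_AG and 2.13 and 2.01 in AG, against 0.0959 to 0.416, with Tagln and Acta2 as the tested members. In each of these mice 2 or 3 of the 5 genes were at 0 in the bulge and germ cells.

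The cells were not uniform. A Cd34 UMI was found in 71 of 321, 113 of 393, 25 of 108 and 24 of 98 cells of NO_AG 1, NO_AG 2, AG 1 and AG 2. Krt15, a keratin of the bulge and part of the rule, was at 109, 94.8, 130 and 61.2 UMIs per 10000 in these cells and at 58.8, 48.6, 59.3 and 34.4 in the cells without a Cd34 UMI. Krt79 was at 0.138, 0.364, 0.982 and 6.78 with Cd34, and at 4.41, 7.66, 8.99 and 12.0 without it. Cells with Cd34 were thus higher in Krt15 and lower in Krt79 in each of the 4 mice. Levels of H2-K1 are therefore given for both subsets below.

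The share of these cells among basal keratinocytes was highest in the NO_AG mice. It was 17.2% (95% Wilson interval 15.6 to 19.0) and 29.7% (27.3 to 32.3) in NO_AG, and 14.5% (12.1 to 17.2) and 8.73% (7.21 to 10.5) in AG. In AG_CPI it was 2.78% (0.949 to 7.85) and 7.39% (4.37 to 12.2). The groups did not overlap, and the means were 23.5% ± 8.86, 11.6% ± 4.07 and 5.08% ± 3.26 (SD, n = 2 mice each). AG minus NO_AG was -11.9 percentage points, AG_CPI minus AG was -6.52, and AG_CPI minus NO_AG was -18.4. These sizes leaned on single mice: AG minus NO_AG was -5.60 without NO_AG 2 and -18.1 without NO_AG 1. AG_CPI minus AG was -3.65 without AG 1 and -4.22 without AG_CPI 1, and AG_CPI minus NO_AG was -12.1 without NO_AG 2. With all mice, each had a two-sided exact permutation p of 0.333, the smallest that 2 against 2 mice can give, so none can pass a threshold of 0.05. The intervals cover counting error only.

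Detection of 3 genes depends on depth, so every cell was also thinned to 1500 UMIs, which left out no cell. NO_AG mice then had shares of 8.27% and 10.7%, AG mice 6.42% and 2.79%, and AG_CPI mice 0% (0 of 130 cells, where a count of 0 allows a share of up to 2.31%, that is 3 cells) and 3.43%. AG stayed below NO_AG, but AG_CPI and AG overlapped, with an exact permutation p of 0.667. As a share of all cells, NO_AG mice had 6.46% and 9.60%, AG mice 3.08% and 2.10%, and AG_CPI mice 0.173% and 0.589%. These are shares of the cells recovered in suspension, and a smaller number of bulge and germ cells cannot be told apart from a larger number of other cells.

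**Figure D2:**
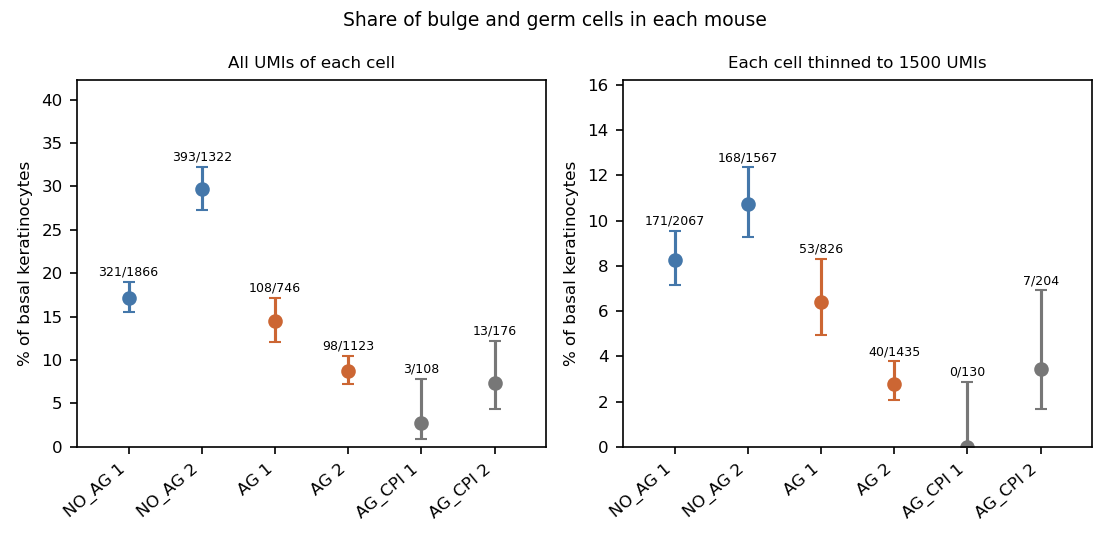
Bulge and germ cells as a percentage of basal keratinocytes in each mouse, with 95% Wilson intervals and cell numbers, from all UMIs (left) and after thinning each cell to 1500 UMIs (right). NO_AG mice lie above AG mice in both panels, and AG_CPI overlaps AG after thinning.

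Gene levels were compared between AG and NO_AG as means per mouse. Of 7825 genes tested with limma, 40 passed an adjusted p of 0.05, or 0.511% of genes; 39 rose (0.498%) and 1 fell (0.0128%). The median log2 fold change over all tested genes was 0.00, and 588 genes had an unadjusted p under 0.05. Of the 40 genes, 31 were in at least 1 of the lists and 9 in none; the lists had been chosen with earlier results of these data known. Of the 39 genes that rose, 21 passed the filter on low values in both NO_AG mice. The other 18 passed only through their level in AG or AG_CPI, so their fold change rests on a pseudocount of 0.1 UMIs per 10000 and is not a bound. The calls leaned on AG 2, since 13 genes were called without it, 11 of them among the 40, and 58 without AG 1, 19 of them among the 40.

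Class I presentation genes were the list with the most calls in the main fit. Under some alternatives the type I interferon-stimulated list had more, such as 10 against 9 with a pseudocount of 0.5 and 9 against 7 with the deposited scaling. Of the 22 class I genes, all of which were tested, 13 rose and none fell, and the median log2 fold change was 1.34. All 22 had a fold change above 0, but 6 of 16 alternatives, among them the deposited scaling alone, left 1 or 2 genes not above 0. The list had 7 calls with the deposited scaling alone, 8 with cell filters and Scrublet, 2 without the filter on low values, and 2 of 16 tested after thinning to 1500 UMIs. The filter was passed in both NO_AG mice by 20 of the 22, the 13 that rose included. The sum of 7 fibroblast markers was also higher in AG, with 0.151 and 0.404 in NO_AG and 0.564 and 0.731 in AG. Without cells that had a fibroblast marker UMI, 13 class I genes were called and the median was 1.36. Of the RNA quality genes, which were not called, Malat1 was at 29.5 and 35.8 in NO_AG and at 14.5 and 23.7 in AG, and mt-Cytb at 52.2 and 53.3 and at 66.1 and 69.5. The 9 T cell markers were also higher in both AG mice, with sums of 0.0596 and 0.307 in NO_AG and 0.374 and 4.20 in AG. The part of the T cell and RNA quality genes in the result was not tested. H2-K1, a classical class I heavy chain, had means of 7.51 and 4.96 UMIs per 10000 in the NO_AG mice and 19.3 and 20.5 in the AG mice. Both AG mice were far above both NO_AG mice, and the log2 fold change was 1.80 (SE 0.201, limma adjusted p = 0.0116). B2m, the light chain of class I, was at 7.12 and 4.22 in NO_AG and at 18.1 and 17.8 in AG, with a log2 fold change of 1.81 (SE 0.233, limma adjusted p = 0.0234). H2-D1, the other classical heavy chain, was at 6.80 and 4.53 in NO_AG and at 14.1 and 13.0 in AG, with a log2 fold change of 1.38 (SE 0.203, limma adjusted p = 0.0424). H2-K1, B2m and H2-D1 were called under 14, 13 and 9 of their 16 alternatives. For these 3 genes the groups did not overlap, as was the case for 20 of the 22 class I genes. Across the 13576 genes with a UMI in these cells, 17.8% had both AG mice above both NO_AG mice.

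Some of the non-classical class I genes and of the peptide machinery also rose. H2-Q7 was at 0.704 and 0.348 in NO_AG and at 2.97 and 3.43 in AG, with a log2 fold change of 2.55 (SE 0.271, limma adjusted p = 0.0102). H2-T22 was at 0.599 and 0.590 and rose to 2.71 and 3.03, with a log2 fold change of 2.20 (limma adjusted p = 0.00173). Psmb8, a catalytic subunit of the immunoproteasome, was at 0.673 and 0.618 in NO_AG and at 2.99 and 3.65 in AG, with a log2 fold change of 2.29 (SE 0.167, limma adjusted p = 0.00173). Its partner Psmb9 was at 0.522 and 0.413 and rose to 2.01 and 2.20. Within each group the mice were close for these subunits. Psme1 and Psme2, which form the proteasome activator PA28, rose with log2 fold changes of 1.29 each. Tapbp (tapasin), which loads peptides, and Tap2, a subunit of the peptide transporter, rose by 1.69 and 1.17 on the log2 scale. Tap1, its other subunit, was at 0.845 and 0.630 in NO_AG and at 1.53 and 2.01 in AG, and did not pass. The chaperone Pdia3, which also serves other glycoproteins, was at 3.16 and 3.32 in NO_AG and at 2.75 and 3.50 in AG. Also among the 9 class I genes that did not pass were the non-classical H2-T23 and H2-M3, the immunoproteasome subunit Psmb10, the peptide trimmer Erap1, and Tapbpl, Calr and Nlrc5.

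The H2-K1 difference was present in both subsets of the cells. In cells with a Cd34 UMI, H2-K1 was at 8.99 and 4.41 UMIs per 10000 in NO_AG and at 27.2 and 20.9 in AG. In cells without one it was at 7.09 and 5.18 in NO_AG and at 16.9 and 20.4 in AG. Cells with 5 or more of the markers had H2-K1 at 6.92 and 3.52 in NO_AG and at 20.1 and 20.3 in AG. The groups were thus separate in each of these subsets for H2-K1, and the rest of the list was not compared by subset. Without cells that had a Krt79 UMI, 30 genes were called, 29 of them among the 40, and the class I list had 10 called genes and a median of 1.45. Without AG 2 the class I list had 4 called genes of 21 tested and a median log2 fold change of 1.31. The loss of calls thus came with little change in the median.

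**Figure D3:**
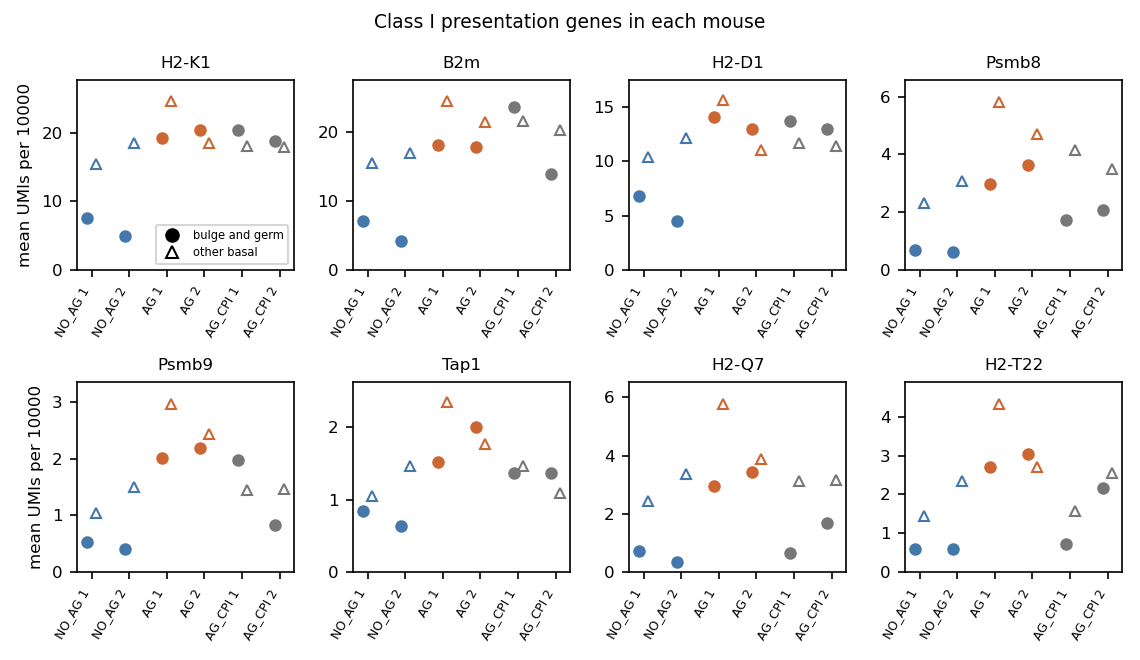
Mean UMIs per 10000 of 8 class I presentation genes in each mouse, in bulge and germ cells (filled circles) and in other basal keratinocytes (open triangles), with NO_AG in blue, AG in orange and AG_CPI in grey; AG_CPI 1 has 3 bulge and germ cells. In all 8 panels the NO_AG circles lie below the AG circles and below the triangles of the same mouse.

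In the NO_AG mice the bulge and germ cells had less class I RNA than the other basal keratinocytes. The 22 genes summed to 36.4 and 28.3 UMIs per 10000 in the bulge and germ cells and to 65.3 and 79.8 in the other basal cells. In the AG mice the sums were 84.0 and 91.9 against 115 and 93.0. H2-K1 in the other basal cells was at 15.4 and 18.5 in NO_AG and at 24.7 and 18.5 in AG. The ratio of bulge and germ to other basal cells for H2-K1 was 0.487 and 0.268 in NO_AG and 0.780 and 1.11 in AG. The class I sums of the populations came close in AG 2 alone. Its other basal cells had a median of 2220 UMIs, and T cell and macrophage markers summed there to 12.2 and 7.32. Their part in the class I values was not tested. The test of that difference, which compares the change in one population with the change in the other, gave 3 called genes of 7225 (0.0415%), and no class I gene was among them. The change was larger in the bulge and germ cells for 19 of the 22 class I genes, with a median difference of 0.54 on the log2 scale, against 50.7% and 0.01 for all genes. For H2-K1 the difference was 1.41 (SE 0.254, limma adjusted p = 0.208), and for Psmb8 it was 1.29 (SE 0.224, limma adjusted p = 0.180).

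Class II genes are a mark of antigen-presenting cells and are also induced in keratinocytes. Of the 9 in the list, 6 were tested and 2 rose. The list had 1 call with the deposited scaling alone, 0 of 8 tested without the filter on low values, and 0 of 1 tested after thinning. Its median log2 fold change was 1.72, and it was 1.19 without AG 2 and 2.16 without AG 1. Cd74, the invariant chain, was at 0.542 and 0.653 UMIs per 10000 in NO_AG and at 2.45 and 4.02 in AG, with a log2 fold change of 2.32 (SE 0.237, limma adjusted p = 0.00946). H2-Eb1 was at 0.206 and 0.173 in NO_AG and at 0.621 and 1.10 in AG, with a log2 fold change of 1.77 (limma adjusted p = 0.0458). Macrophage and dendritic cell markers did not follow this order: the 9 listed genes summed to 0.509 and 0.258 in NO_AG, 0.0673 in AG 1 and 1.34 in AG 2, and 6 of the 9 were at 0 in AG 1. In AG 2 the markers of T cells and of macrophages were both above the other 3 mice. The part of either cell type in the class II values was not tested. Ciita, the class II regulator, was at 0 in AG 1 and at 0.0205 in AG 2, below the filter.

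Genes known as type I interferon-stimulated were the other large group of calls. Of the 38 with a column, 22 were tested and 10 rose. The filter was passed in both NO_AG mice by 10 of the 22, of which 3 rose, with a median log2 fold change of 1.25. The other 12, of which 7 rose, passed only through the mice with antigen, so their calls are no support. Without AG 2 the list had 4 called genes of 15 tested. The T cell markers given above (0.0596 and 0.307 in NO_AG, 0.374 and 4.20 in AG) and the fibroblast markers were higher in both AG mice too, and mt-Cytb and Malat1 shifted as given for class I. Without cells that had a fibroblast marker UMI the list had 10 calls, and the part of the others in the interferon lists was not tested. Without the filter on low values 2 of 38 were called, and after thinning 4 of the 4 tested. Ifi27l2a had means of 1.18 and 1.67 in NO_AG and of 18.2 and 18.5 in AG, with a log2 fold change of 3.72 (SE 0.174, limma adjusted p = 0.000314). It had the smallest p of all genes, and it was called under all 16 alternatives. Isg15, a ubiquitin-like protein that is joined to other proteins, was at 0.146 and 0.373 in NO_AG and at 4.01 and 6.68 in AG, with a log2 fold change of 4.04 (SE 0.328, limma adjusted p = 0.00323). Bst2 (tetherin), which holds virus particles at the cell surface, was at 0.145 and 0.142 and rose to 1.14 and 2.58. The RNA sensors and effectors Rtp4, Oasl2, Ifit1 and Oas1a were all under 0.1 in both NO_AG mice and between 0.557 and 1.40 in the AG mice. All 4 passed the filter only through the mice with antigen, so these levels are a description.

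Several called genes outside that list are also interferon-induced. Ifitm3, which blocks virus entry, was at 2.07 and 2.33 in NO_AG and at 10.5 and 20.2 in AG, with a log2 fold change of 2.78 (SE 0.266, limma adjusted p = 0.00636). Ly6e was at 1.18 and 0.634 and rose to 3.34 and 5.04. Lgals9 (galectin-9) was at 0.669 and 0.504 and rose to 1.70 and 2.38. In each of these genes AG 2 had the higher AG value. Without AG 2, Ifitm3 had a log2 fold change of 2.34 (limma adjusted p = 0.00516, with a range of 9.39e-26 to 0.243 over its alternatives).

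The interferon-gamma response list had 25 of its 31 genes among the columns, and 17 were tested. The filter was passed in both NO_AG mice by 8 of the 17, of which none was called, with a median log2 fold change of 0.20. The 4 called genes, Cxcl9, Gbp2, Cxcl10 and Igtp, were among the 9 that passed only through the mice with antigen, so their levels are a description. Without AG 2 no gene of the list was called, and without AG 1 there were 3, of 11 tested in each case. Cxcl9, a chemokine that draws CXCR3-bearing T cells, was at 0.189 and 0.0267 in NO_AG and at 1.93 and 3.79 in AG. Cxcl10, which binds the same receptor, was at 0.0724 and 0.0267 in NO_AG and at 2.18 and 0.809 in AG. Gbp2, a guanylate-binding protein, was at 0.0524 and 0.0443 in NO_AG and at 0.584 and 1.29 in AG. In each of these 3 genes the AG mice differed widely from each other.

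Receptor genes of the interferons were low and did not pass. Ifngr1, a chain of the interferon-gamma receptor, was at 0.175 and 0.199 UMIs per 10000 in NO_AG and at 0.195 and 0.176 in AG. In the other basal keratinocytes Ifngr1 was at 1.53 and 1.31 in NO_AG and at 0.421 and 0.411 in AG, where it fell by 1.51 on the log2 scale (limma adjusted p = 0.0362). The other basal cells had 44 called genes of 7889, or 0.558%. The difference between the populations for Ifngr1 was 1.58 (SE 0.237, limma adjusted p = 0.0968) and did not pass. Ifnar1 and Ifnar2, the chains of the type I interferon receptor, lay between 0.0846 and 0.461 in the 4 mice.

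Among the other chemokines, Ccl2, which draws monocytes, was at 0.0394 and 0.0132 in NO_AG and at 0.328 and 0.373 in AG. It was called, but it too passed the filter only through the mice with antigen. Cxcl14, a chemokine that resting epithelia make, had the highest level of that list, with 9.78 and 10.3 in NO_AG and 7.67 and 7.71 in AG. It did not pass, with a log2 fold change of -0.26. None of the 13 lymphocyte and myeloid growth cytokines, which include Il7 and Il15, passed the filter on low values. The highest value among them in the 4 mice was 0.207, for Il34 in AG 2. Of the 16 immune privilege genes 6 were tested and none was called. Cd200, an inhibitory surface protein of the bulge, was at 1.37 and 1.04 in NO_AG and at 0.758 and 1.23 in AG, so the groups overlapped. Cd274, which encodes PD-L1, was at 0.00696 and 0.00485 in NO_AG and at 0.0403 and 0.106 in AG, and was below the filter.

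**Figure D4:**
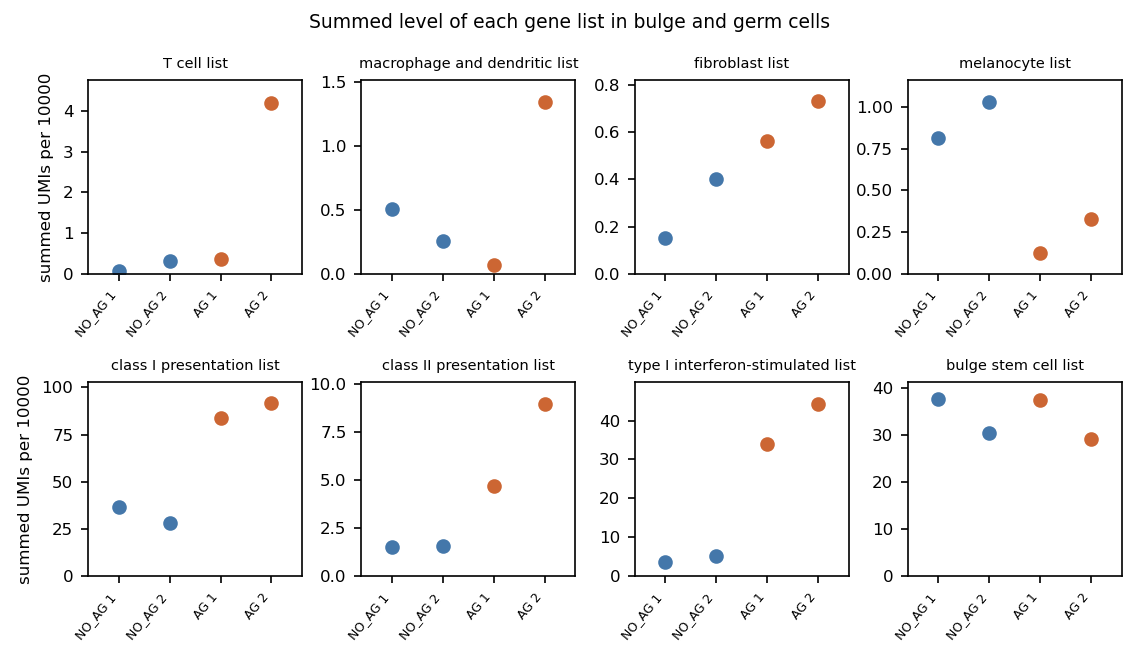
Summed UMIs per 10000 of 8 gene lists in the bulge and germ cells of each NO_AG and AG mouse; each point is 1 mouse, and AG_CPI is left out because of its few cells. The class I, class II and type I interferon sums are higher in both AG mice, the T cell sum is high in AG 2 alone (4.20), and the bulge stem cell sum overlaps between the groups.

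Sequences just upstream of the genes that rose were searched for the binding motifs of interferon-activated factors, because members of the group moved together. RefSeq promoters (GRCm38.p6) were found for 32 of the 39 genes, and the window was the 250 bases before the transcription start. GAAANNGAAA, the core of the interferon-stimulated response element, was found on either strand in 13 of the 32, against 3.04% of 27025 promoters and 2.57% of those of tested genes. AAGTGAAA, a shorter match that can overlap the first, was found in 9 of the 32, against 1.44% and 1.12%. TTCNNNGAA, the motif of STAT dimers, was found in 4 of the 32, against 7.18% and 5.55%. Of the 32, 17 are genes that passed the filter in both NO_AG mice, and these 3 motifs were in 5, 6 and 2 of them. A match is a description of the letters, not a binding site. The following 5 promoters show the 2 kinds of match, in interferon-stimulated genes and in both classical class I heavy chains. Capitals mark matches to GAAANNGAAA or AAGTGAAA on either strand, and each sequence is given in the direction of its gene.
Isg15, chr4:156200819-156201068, minus strand: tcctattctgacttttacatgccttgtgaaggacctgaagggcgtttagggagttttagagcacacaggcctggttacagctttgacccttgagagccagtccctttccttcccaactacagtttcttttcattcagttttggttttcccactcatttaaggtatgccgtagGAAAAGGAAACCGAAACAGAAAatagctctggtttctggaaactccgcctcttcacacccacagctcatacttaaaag
Ifit1, chr19:34640639-34640888, plus strand: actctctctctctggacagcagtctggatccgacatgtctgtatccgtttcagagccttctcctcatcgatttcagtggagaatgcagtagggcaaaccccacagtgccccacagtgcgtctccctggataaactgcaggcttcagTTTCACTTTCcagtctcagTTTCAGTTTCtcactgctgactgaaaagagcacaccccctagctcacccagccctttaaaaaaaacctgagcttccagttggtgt
Gbp2, chr3:142620413-142620662, plus strand: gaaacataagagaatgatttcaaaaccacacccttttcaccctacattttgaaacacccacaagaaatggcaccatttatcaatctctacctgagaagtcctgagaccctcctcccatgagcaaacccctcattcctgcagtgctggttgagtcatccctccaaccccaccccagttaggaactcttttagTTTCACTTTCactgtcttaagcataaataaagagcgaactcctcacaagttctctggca
H2-K1, chr17:34000348-34000597, minus strand: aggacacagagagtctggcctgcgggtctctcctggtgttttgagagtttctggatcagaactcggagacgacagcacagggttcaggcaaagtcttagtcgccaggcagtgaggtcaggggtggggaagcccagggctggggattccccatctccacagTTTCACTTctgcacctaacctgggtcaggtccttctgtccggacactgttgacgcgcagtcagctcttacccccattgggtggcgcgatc
H2-D1, chr17:35262844-35263093, plus strand: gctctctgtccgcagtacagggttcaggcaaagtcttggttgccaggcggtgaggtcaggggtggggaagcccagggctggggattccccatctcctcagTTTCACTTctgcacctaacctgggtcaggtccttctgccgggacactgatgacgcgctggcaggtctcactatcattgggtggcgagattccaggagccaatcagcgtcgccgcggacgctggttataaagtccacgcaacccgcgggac

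Stem cell identity genes showed no called change. Of the 17 bulge genes 16 were tested, none was called, and the median log2 fold change was -0.08. The levels of Cd34, Lhx2 and Sox9 given above overlapped between the groups or differed little. Nfatc1, which keeps bulge cells quiet, was at 0.942 and 0.556 in NO_AG and at 0.352 and 0.279 in AG, with a log2 fold change of -0.90 (SE 0.272) that did not pass. The hair germ list had 6 of 9 genes tested and a median of 0.03, and none was called. Shh, a signal of the growing germ, was at 0 in both NO_AG mice and in AG 1, and at 0.0778 in AG 2. A p above the threshold with 2 mice a group does not show that levels were equal.

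The signalling lists were likewise without calls. Of the Wnt pathway, 3 of 11 ligands, 11 of 17 receptors, 5 of 11 inhibitors and 9 of 13 nuclear factors and targets were tested, with medians between -0.21 and 0.15. Fzd2, the receptor with the highest level in a list that leaves out the rule gene Lgr5, was at 2.04 and 1.68 in NO_AG and at 1.73 and 1.81 in AG. Sostdc1 (Wise), an inhibitor of Wnt and BMP signals, was at 4.48 and 7.04 in NO_AG and at 6.80 and 3.46 in AG. Neither gene separated the groups. In the BMP and TGF-beta list 19 of 23 genes were tested with a median of 0.01. Id3, a target of BMP signals, was at 3.07 in both NO_AG mice and at 1.92 and 2.35 in AG, without passing. All 16 basement membrane and adhesion genes were tested, with a median of -0.17 and none called. Col17a1, the hemidesmosomal collagen that stem cells need to stay in place, was at 5.44 and 4.96 in NO_AG and at 4.59 and 4.22 in AG.

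Genes of cell death and of the cell cycle gave no calls either. Of 23 cell death genes 10 were tested, with a median of -0.11. Without the filter, both AG mice lay above both NO_AG mice for 10 of the 23 and below them for 3. Over all genes with a UMI these shares were 17.8% and 18.4%. Tnfrsf1a, the receptor of TNF, was at 2.01 and 2.13 in NO_AG and at 2.22 and 1.42 in AG. Of the 21 cell cycle genes 17 were tested with a median of 0.30, and 14 of the 17 were above 0, against 50.2% of all genes tested. Without the filter, both AG mice lay above both NO_AG mice for 11 of the 21 and below them for 2. Cdkn1b, the inhibitor p27, was at 1.35 and 1.37 in NO_AG and at 0.633 and 0.685 in AG, with a log2 fold change of -0.84 (SE 0.164, limma adjusted p = 0.136). Its groups did not overlap, as was the case in that direction for 18.4% of the genes with a UMI, and it did not pass. The rule removed cells with both Mki67 and Top2a, so dividing cells were largely outside this comparison.

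Dct, an enzyme of pigment synthesis and a melanocyte marker, was the gene that fell. It was at 0.478 and 0.589 UMIs per 10000 in NO_AG and at 0.0493 and 0.0878 in AG, with a log2 fold change of -1.84 (SE 0.243, limma adjusted p = 0.0243). The 6 melanocyte markers summed to 0.816 and 1.03 in NO_AG and to 0.123 and 0.331 in AG, with 3 of the 6 at 0 in AG 1. The sums in the other basal keratinocytes were 0.919 and 0.872 in NO_AG and 0.151 and 0.573 in AG, so the same order was seen there. Dct was called under 9 of its 14 alternatives, and the part of melanocyte RNA in this result was not tested. Next in order of p were Pi15, a peptidase inhibitor, and Tagln, an actin-binding protein, both of which missed the threshold. Pi15 was at 1.98 and 1.78 in NO_AG and at 0.788 and 0.479 in AG (log2 fold change -1.36, limma adjusted p = 0.0939). Tagln was at 2.65 and 3.04 in NO_AG and at 1.40 and 1.34 in AG (log2 fold change -0.89, limma adjusted p = 0.0939).

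Part of the calls were shared with the other basal keratinocytes. Of the 40 genes called in bulge and germ cells, 17 were called there too, which is 42.5% of the 40 and 38.6% of the 44 called in the other basal cells. Isg15, for example, was at 0.279 and 0.459 in NO_AG and at 4.63 and 6.67 in AG in the other basal cells, close to its levels in the bulge and germ cells. Among those not called there were H2-K1, H2-D1 and H2-Q4, with log2 fold changes of 0.38, 0.28 and -0.04 in the other basal cells. Psmb9 and Tapbp were not called there either, with 1.10 and 1.11. Of the 39 genes that rose in bulge and germ cells, 38 had a fold change above 0 in the other basal cells, all but H2-Q4. Over all genes tested in the other basal cells, 49.0% did. None of the 40 differences between the populations was called. Since the 40 were chosen by their change in the bulge and germ cells, a count of those with a larger change there is not given. The NO_AG and AG mice are the same in both comparisons, so the calls are not independent.

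**Figure D5:**
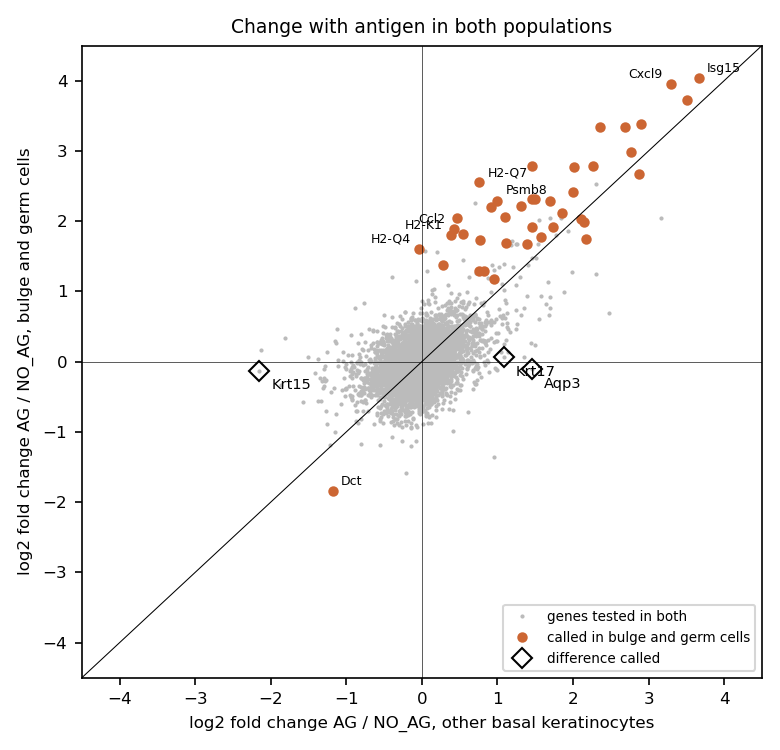
Log2 fold change of AG against NO_AG in bulge and germ cells (vertical) and in other basal keratinocytes (horizontal) for the genes tested in both; the diagonal marks equal change. Orange points are genes called in bulge and germ cells, and diamonds are the 3 genes whose difference was called, of which Krt15 belongs to the rule. Class I genes such as H2-K1, H2-Q4 and H2-Q7 lie above the diagonal, and Isg15 lies near it.

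Besides Krt15, the genes whose change differed between the populations by the test were Aqp3 and Krt17. Aqp3, the water and glycerol channel of basal keratinocytes, was at 1.75 and 2.22 in NO_AG and at 1.74 and 1.62 in AG in the bulge and germ cells. In the other basal cells it was at 1.94 and 2.29 in NO_AG and at 5.69 and 5.77 in AG. It thus rose only in the latter, and the difference was -1.56 on the log2 scale (SE 0.150, limma adjusted p = 0.0213). Krt17, which is induced in stressed epidermis, was at the levels given above in both populations. Its difference was -1.03 (SE 0.117, limma adjusted p = 0.0369). Krt15 enters the rule of both populations, so its levels are a description. It was at 69.8, 61.9, 75.7 and 41.0 in the bulge and germ cells and at 68.9, 72.8, 26.6 and 8.76 in the others. No difference was called when cells with a Krt79 UMI or a fibroblast marker UMI were left out. Aqp3 then had differences of -1.84 (limma adjusted p = 0.172) and -1.66 (limma adjusted p = 0.0514), and Krt17 of -1.16 and -1.04, with the same adjusted p.

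Immediate early genes, which respond within minutes to many stimuli, had no called difference. Of the 16 genes, 14 had a difference above 0, with a median of 0.72, against 50.7% and 0.01 for all genes. Atf3 was at 1.06, 0.860, 0.991 and 1.18 in the bulge and germ cells and at 1.71, 1.29, 0.563 and 0.636 in the other basal cells (difference 1.41, limma adjusted p = 0.0701). Fos was at 7.81, 6.63, 8.14 and 5.67 against 6.31, 4.54, 2.67 and 2.06 (difference 1.14, limma adjusted p = 0.0736). In both genes the other basal cells of the AG mice were low and the bulge and germ cells were level. Median depth of the other basal cells was 6733 in AG 1 and 2220 in AG 2, and its part in these differences was not tested.

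AG_CPI mice gave too few cells for a gene test, since AG_CPI 1 had 3. In AG_CPI 2, with 13 cells, H2-K1 was at 18.8 UMIs per 10000, from 155 UMIs in all (18.1 per 10000 when summed, exact Poisson interval 15.3 to 21.2). The summed levels were 7.12 (6.75 to 7.51) and 4.79 (4.52 to 5.07) in NO_AG and 19.7 (18.7 to 20.8) and 20.4 (19.3 to 21.6) in AG. H2-K1 in AG_CPI 2 was thus above both NO_AG mice and close to the AG mice, by counting error alone. B2m was at 13.9 in AG_CPI 2, between the groups, and the class I sum was 68.2. Ifi27l2a was at 11.7 and Isg15 at 3.65, both under the AG mice and above the NO_AG mice. Cxcl9 was at 0.0598 and Cd74 at 0.432 in AG_CPI 2, not above the NO_AG range. In the 3 cells of AG_CPI 1 the means of Cxcl9 and Cd74 were 21.8 and 6.23. Ifi27l2a was at 1.25 in these 3 cells, from 2 UMIs, within the NO_AG range. Igfl3, a growth factor-like gene of stressed epidermis, was at 0 in both NO_AG mice, 0.00647 in AG 1 and 0.351 in AG 2, and at 8.79 and 0 in AG_CPI. In the other basal cells it was between 1.09 and 2.00 in the 4 mice with antigen.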

How the data were processed

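Skin cells of 6 mice (2 per group, by the sample titles) were profiled with a 10x Genomics 5' kit, per the labels' protocols. Cell Ranger 3.1 and the mm10 genome are named in the submitters' processing notes. As deposited by the authors, a value is the log10 of (1 + x), with x a gene's UMIs scaled to 10000 per cell; no header states it, but inverting log10 gave whole UMIs (within 0.01, or 0.1% above 10 UMIs) for 100% of the entries, against 65.3% to 67.8% when a natural log was assumed. The 16158 deposited genes hold 95.4% to 96.7% of the UMIs, so genes had been removed after scaling. Cells have 1501 to 14995 UMIs.

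Members, lists and rules were chosen with earlier results of these data known. Values were inverted, averaged over the members of a mouse, scaled with TMM (trimmed mean of M-values) factors and tested as log2 of the mean plus 0.1 with limma 3.58.1 in R 4.3.3 (limma-trend, Benjamini-Hochberg over all genes tested, threshold 0.05). Genes needed 10 UMIs and a mean of 0.1 in at least 2 mice, and mice needed 10 members, so AG_CPI 1 was left out of the fit. AG_CPI 2 was then alone in its group and added nothing to the estimate of the spread, which came from NO_AG and AG. The same 40 genes were called without AG_CPI 2. Fold changes are on the log2(mean + 0.1) scale, which understates changes of low genes. Named genes are up to 12 called genes in each direction by p (leaving out gene models, receptor segments, sex-linked, mitochondrial and ribosomal genes), up to 4 called genes per list or else the 2 with the highest level, and 6 differences in each direction. Other genes named in the text were chosen after their values were seen. No doublets were removed. Scrublet (scanpy 1.11.5) ranked 12 and 4 members of the NO_AG mice among likely doublets, and none elsewhere; leaving these out was an alternative. The fit was also run on simulated data, and no statement here rests on the outcome, which is not given. Of the listed symbols, 13 had no column here, among them Cxcl11 and Iigp1, and 8 symbols head 2 columns. The precision is limited by 2 mice a group; intervals cover counting error only. The same-numbered mice of NO_AG and AG did not deviate together across genes (r = 0.04).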

Additional observations from a re-analysis of the deposited data

Results flagged for a closer look

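The change from NO_AG to AG differed between bulge and germ cells and other basal keratinocytes for Aqp3 and Krt17, by limma on the difference per mouse. For Aqp3 the change was lower in bulge and germ cells by -1.56 on the log2 scale (adjusted p = 0.0213). For Krt17 the difference was -1.03 (adjusted p = 0.0369). Over 16 alternatives the differences ranged from -1.88 to -1.17 for Aqp3 and from -1.33 to -0.83 for Krt17. They were called under 11 and 9 of these alternatives. Without AG 2, whose other basal keratinocytes had a median of 2220 UMIs, the differences were -1.49 and -1.08.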

How the results depend on the processing

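With 2 mice a group, the spread behind each call is pooled over genes. Against 40 called genes, 26 were called with a pseudocount of 0.5, 25 with the deposited scaling alone, 4 without the filter on low values and 7 with every cell thinned to 1500 UMIs, where 13594 and 3195 genes were tested in the last pair. The replicate block, with replicate number as a term, gave 97 calls (the 40 included) and 159 differences; the numbers are not known to pair the mice. Leaving out each mouse gave 13 (without AG 2) to 71 calls (without NO_AG 2), where the lone mouse is assumed to vary like the others. Against 3 called differences, 0 were called without the filter, after thinning, without fibroblast marker UMIs and without Krt79 UMIs, 1 with the deposited scaling or with at least 4 markers, 8 with summed UMIs and 11 in cells with at least 3000 UMIs. Leaving out each mouse gave 3 (without AG_CPI 2) to 716 differences (without AG 1). The cause of these moves was not tested. The sets without Krt79 UMIs and with at least 3000 UMIs were chosen after seeing the data. None of the 40 called genes changed sign under a setting in which it was tested. Of 45 named genes not called, 30 changed sign under at least 1 setting. The shares kept their direction under all alternatives. Gene tests of AG_CPI and their alternatives were not run, because AG_CPI 1 had 3 cells.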
